A study of Mus musculus with 5 samples.

Results

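The fibroblast growth factor (FGF) pathway was followed over 10 genes in 5 RNA-seq libraries of MEFs, fibroblasts cultured from mouse embryos, during a chemically defined conversion towards neuron-like cells. The genes were chosen by name: the ligands Fgf2 and Fgf7, the receptors Fgfr1 and Fgfr2, the ETS transcription factors Etv4 and Etv5, and the feedback inhibitors Spry1, Spry2, Spry4 and Dusp6. All 10 were found among the 27729 genes of the deposited tables. Of these 10 genes, 9 had 10 or more expected counts in at least 1 library and entered the counts of changed genes, as did 13346 genes of the whole table. Fgf2 did not.

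The MEFs came from 13.5-day embryos of ICR mice. The day 0 library was made from MEFs in medium with fetal bovine serum. The libraries of days 2, 5, 10 and 14 were made after serum had been replaced by a serum-free medium, called 5C in the study and 6C in the labels, which holds N2 supplement with its insulin, basic FGF (the protein encoded by Fgf2), LIF, vitamin C and 2-mercaptoethanol in DMEM/F12. Removal of serum, addition of FGF protein and addition of the other components thus fell on the same change of medium and cannot be told apart. There was 1 library per day, so differences between days have no replicate check and were not tested, and p-values are not given. The last library is labelled day 14, while the treatment text beside it names the following day, so its time is uncertain by that much, and the labels and the study give different seeding densities. Where later times are listed in order, they are days 2, 5, 10 and 14.

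FGFs are secreted proteins that bind receptor tyrosine kinases together with heparan sulphate chains on the cell surface. The activated receptor signals through Ras, Raf, MEK and ERK to the nucleus, where ETS factors of the PEA3 type, among them Etv4 and Etv5, are both targets and effectors of the pathway. Sprouty proteins hold the signal back upstream of ERK, and Dusp6 is a phosphatase that removes the activating phosphates from ERK in the cytoplasm. Transcripts of Sprouty genes, Dusp6 and the PEA3 factors are widely used as readouts of FGF and ERK activity. Other receptor tyrosine kinases feed the same cascade, and fibroblasts express mainly Fgfr1 among the FGF receptors.

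Expected counts, which are RSEM's estimates of the reads from each gene, added up to 2253748 (day 2) to 3890334 (day 0), and 3 counts corresponded to 0.771 to 1.33 per 1000000 counts. Changes below are log2 ratios to day 0 of normalized counts, which are expected counts scaled for library size and composition, plus a pseudocount of 1. The bracketed 95% intervals are exact (Clopper-Pearson, from rounded counts) and take in the error of counting alone, so variation among cultures and library preparations lies outside them. They were computed for the ratio without the pseudocount, so at low counts the stated change lies nearer 0 than the ratio they bracket. A gene was called up or down when it changed over 2-fold, without a test. The day 2 library had the lowest sum, and the ribosomal RNA related gene Gm42418 took 4.79% of its counts, against 0.0484% to 0.109% in the others.

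Transcript levels also changed with gene length. On day 10 the median change was -1.51 for genes with models under 1000 bases and 0.90 for genes with models of 4000 bases or more, and on day 14 these medians were -1.11 and 0.50. Changes of the 10 genes from day 0 after subtraction of the running median of genes of like length are therefore given where they alter a call. Values of single genes outside the 10 are given without this subtraction. In bulk RNA, fewer cells of a type and less RNA per cell cannot be told apart.

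Summed normalized counts of 8 macrophage markers were 220 on day 0 and 1817, 3503, 1846 and 1314 at the later times, with 8, 8, 7 and 6 of the 8 called up. Those of 8 Schwann cell and neural crest markers were 115 on day 0 and 199, 1204, 7639 and 10825 later, with 3, 7, 8 and 8 called up. The sum of 9 fibroblast markers, to which Vim alone gave 29392 of 54597 on day 0, lay between 47133 and 101394, with 3 called up at each later time and 2, 2, 3 and 2 called down. Within it Twist2 changed by -2.71, Thy1 by -1.39, Col3a1 by 3.87 and Dcn by 4.86 on day 14. Sums of 8 neuron markers lay between 240 and 668, with Rbfox3 at 0 in all libraries. Only 4 of these neuron markers were tested, with 0, 2, 2 and 2 called up and 1, 2, 2 and 2 down. Sums for endothelium were 274 on day 0 and 10.7 at the end, those for skeletal muscle 1190 and 48.4, and those for epithelium 48.5 at the start, 322 on day 2 and 18.8 at the end, with Ocln at 0 throughout. Only 3 markers were tested in each of these lists. For endothelium 1, 0, 1 and 0 were called up and 1, 1, 2 and 2 down. For skeletal muscle 0 were up at each later time and 2, 3, 3 and 3 down. For epithelium 2, 1, 0 and 0 were up and 0, 1, 2 and 3 down. Beside these marker calls, 15.2%, 20.2%, 28.7% and 24.5% of all tested genes were up at the later times, and 13.1%, 13.6%, 22.3% and 19.9% down. The share of other cell types in the changes of the FGF genes was not tested.

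On day 2, 3 of the 9 tested FGF genes were called up (Dusp6, Etv4 and Etv5) and 2 were called down (Spry1 and Fgfr2), where 15.2% of all tested genes were up and 13.1% down. On day 5, 4 were up (Spry4, Dusp6, Etv4 and Etv5) and 1 was down (Fgfr2), against 20.2% and 13.6% of all tested genes. On day 10, 3 were up (Spry4, Dusp6 and Etv5) and 2 were down (Etv4 and Fgfr2), against 28.7% and 22.3%. On day 14, 3 were up (Spry2, Dusp6 and Etv5) and 2 were down (Etv4 and Fgfr2), against 24.5% and 19.9%. Among these 9 genes, Dusp6 and Etv5 were the only ones called up at all 4 later times, and Fgfr2 was the only one called down at all 4. After subtraction of the length trend, Dusp6 and Etv5 were at 0.95 and 0.81 on day 14, under 2-fold. The pattern was not particular to the 9 genes. Outside them Fgf1 and Spred1, for example, were called up and Fgf13 down at all 4 times. The share of all tested genes called at all 4 times was not computed. The median change of the 9 tested genes was 0.27, 0.92, 0.63 and 0.69 at the later times, beside -0.03, 0.05, 0.14 and 0.07 for all tested genes.

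**Figure D1:**
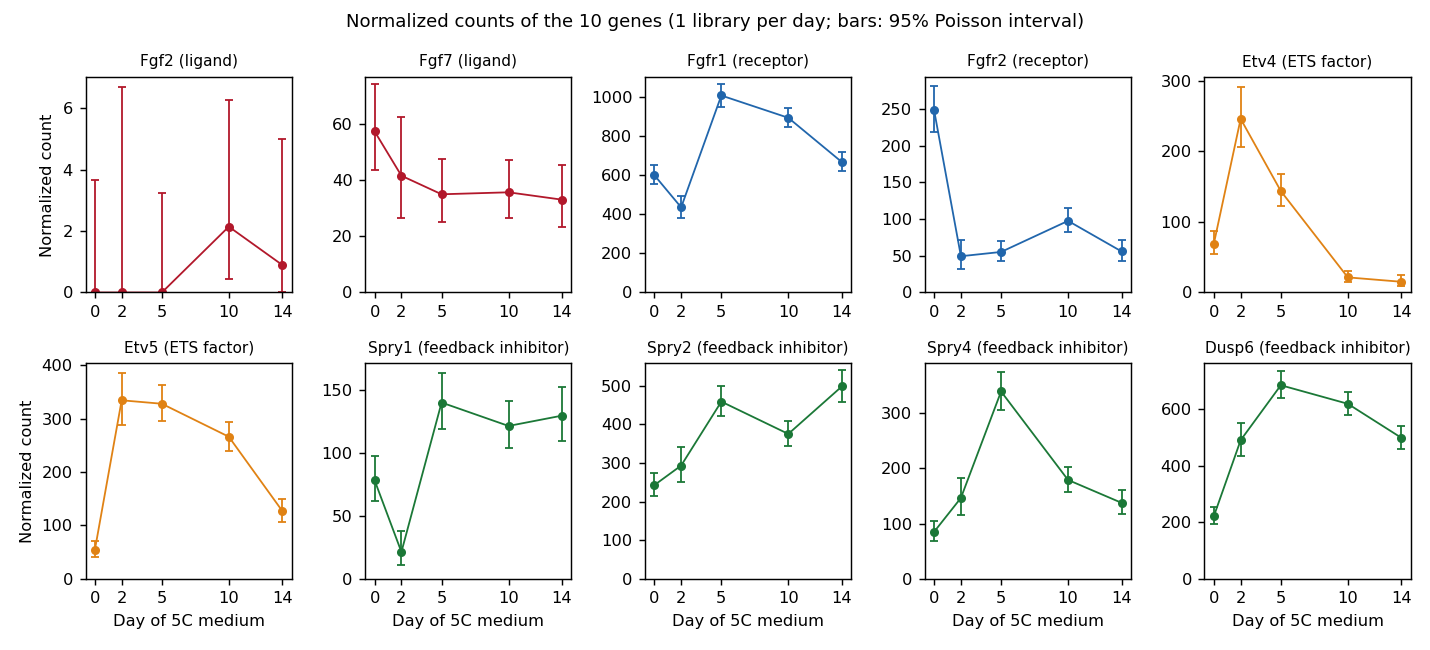
Normalized counts of the 10 genes (vertical axes from 0, a scale of its own in each panel) against day of 5C medium, with 1 library per day and bars for the 95% Poisson interval of the count. Dusp6 peaked on day 5 at 685 and Etv4 on day 2 at 246, Fgfr2 was highest on day 0 at 248, and Fgf2 stayed at or under 3 counts.

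Promoter sequences were available for 7 of the 10 genes, in 8 RefSeq windows of the GRCm38.p6 assembly (Spry1, Spry2, Dusp6, Fgf2, Fgf7, Fgfr2 and, with 2 starts, Etv5). Of the feedback inhibitors, Spry2 and Dusp6, both called up on day 14, are shown, beside Fgfr2, which was called down. These 3 windows share no base with an annotated exon. Each runs 5′ to 3′ over the 250 bases before a RefSeq start. For Fgfr2 that start lies inside the gene span of GENCODE M21, which extends to 133123350 on the minus strand, so the 2 annotations differ. The windows lie at chr14:105896820-105897069 on the minus strand for Spry2, chr10:99262981-99263230 on the plus strand for Dusp6 and chr7:130266809-130267058 on the minus strand for Fgfr2. Capitals mark GGAA, the core of ETS binding motifs, or its complement TTCC.
Spry2: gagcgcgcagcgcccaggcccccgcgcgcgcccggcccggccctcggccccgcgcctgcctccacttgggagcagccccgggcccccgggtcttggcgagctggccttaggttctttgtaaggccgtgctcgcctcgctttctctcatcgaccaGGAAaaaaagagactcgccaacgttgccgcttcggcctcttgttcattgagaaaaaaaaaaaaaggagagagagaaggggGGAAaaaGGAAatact
Dusp6: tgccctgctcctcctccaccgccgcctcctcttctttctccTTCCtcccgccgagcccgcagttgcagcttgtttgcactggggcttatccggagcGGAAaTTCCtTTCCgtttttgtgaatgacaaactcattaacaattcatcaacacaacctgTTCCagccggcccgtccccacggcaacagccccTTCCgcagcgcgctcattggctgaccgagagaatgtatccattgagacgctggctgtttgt
Fgfr2: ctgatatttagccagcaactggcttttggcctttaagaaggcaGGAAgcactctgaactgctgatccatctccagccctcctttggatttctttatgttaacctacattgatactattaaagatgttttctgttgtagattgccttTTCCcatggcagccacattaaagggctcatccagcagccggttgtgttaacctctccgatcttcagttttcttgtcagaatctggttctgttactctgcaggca
The core was found at 3 positions before Spry2, 6 before Dusp6 and 2 before Fgfr2. The median over 32851 promoter windows of the same length was 3, the 95th percentile was 6, and 93.4% of the windows held at least 1 match, so the 3 windows lay within the usual range. The longer motifs CCGGAA (an ETS motif that includes the core), TGANTCA (AP-1) and TGACGTCA (CRE), searched on both strands, had no match in any of the 8 windows. They were found in 12.0%, 6.75% and 1.55% of all windows, and at least 1 of the 3 in 19.5%. GC content was 62.4% for Spry2, 56.4% for Dusp6 and 44.0% for Fgfr2.

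Among the ligands, Fgf2 (ENSMUSG00000037225, chromosome 3, 37348346 to 37410108, GENCODE M21 on GRCm38) encodes the basic FGF that the medium supplies as protein. Its expected counts were 0 on days 0, 2 and 5, 3 on day 10 and 1 on day 14, all at or under the floor of 3 counts, so no fold change is given. The gene model behind these counts was short. The longest listed transcript that M21 also holds has 1240 bases, while M21's transcript of 5973 bases was not among those listed for the gene. How reads from the longer transcript were assigned was not tested. Nudt6, which lies on the opposite strand and overlaps Fgf2 exons by 640 bases, had between 8 and 31.0 expected counts per library. The counting was not stated to use strand, so reads from the shared bases cannot be told apart.

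Fgf7 (ENSMUSG00000027208, chromosome 2, 126034658 to 126091185), a mesenchymal ligand that acts mainly on epithelia through a splice form of Fgfr2, had a normalized count of 57.4 on day 0 and of 41.6, 35.0, 35.7 and 33.1 at the later times. The day 0 value was the highest. Its change was -0.45 (-1.23 to 0.26), -0.70 (-1.33 to -0.11), -0.67 (-1.26 to -0.11) and -0.78 (-1.43 to -0.18) at the later times. Intervals on days 5, 10 and 14 lay below 0, no change passed 2-fold, and no library in the order of levels differed from its neighbour beyond counting error.

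The other secreted ligands are given from a list of 16 genes. Only 4 of them reached 10 counts. Of these, 2, 3, 2 and 2 were called up at the later times, and none was called down. Of all tested genes, 15.2%, 20.2%, 28.7% and 24.5% were up and 13.1% to 22.3% down. The 2 calls on day 2 rested on few counts, from 0 to 5 for Fgf1 and from 4 to 5 for Fgf18. The change of Fgf18 on day 2 was 1.02 (-1.02 to 3.53). Fgf4, Fgf6, Fgf8, Fgf15 and Fgf23 were at 0 in all 5 libraries. Fgf5, a ligand known for ending the growth phase of hair follicles, had 27 expected counts on day 0 and 19, 65, 273 and 1002 later, the largest rise among the tested ligands with counts on day 0. Its change on day 14 was 5.01 (4.52 to 5.68). Fgf1, the acidic FGF, had 0 expected counts on day 0 and 5, 51.3, 36 and 31 on the later days. Against a floor of 3 counts in the day 0 library, it was at least 15.1-fold higher on day 5, at least 8.66-fold on day 10 and at least 9.33-fold at the end. These bounds leave out the counting error of the later libraries, and with it the lower ends of the log2 intervals were 3.56, 2.74 and 2.84.

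On the TPM scale, which divides by gene length and so allows levels of different genes to be compared within a library, Fgf7 held 39.3% of the summed level of 18 secreted ligands on day 0 and Fgf5 held 17.1%. By day 5 their shares were 18.2% and 28.1%. On day 14 Fgf7 held 3.35% and Fgf5 held 86.4%. By TPM, the leading ligand transcript thus went from Fgf7 to Fgf5, in libraries in which the normalized count of Fgf7 itself changed by less than 2-fold. The lead of Fgf7 on day 0 depended on division by length. Fgf10 then had 5.49 TPM beside 8.69 for Fgf7, but more normalized counts, 64.3 against 57.4. The sum also takes in Fgf2, whose gene model was short.

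**Figure D2:**
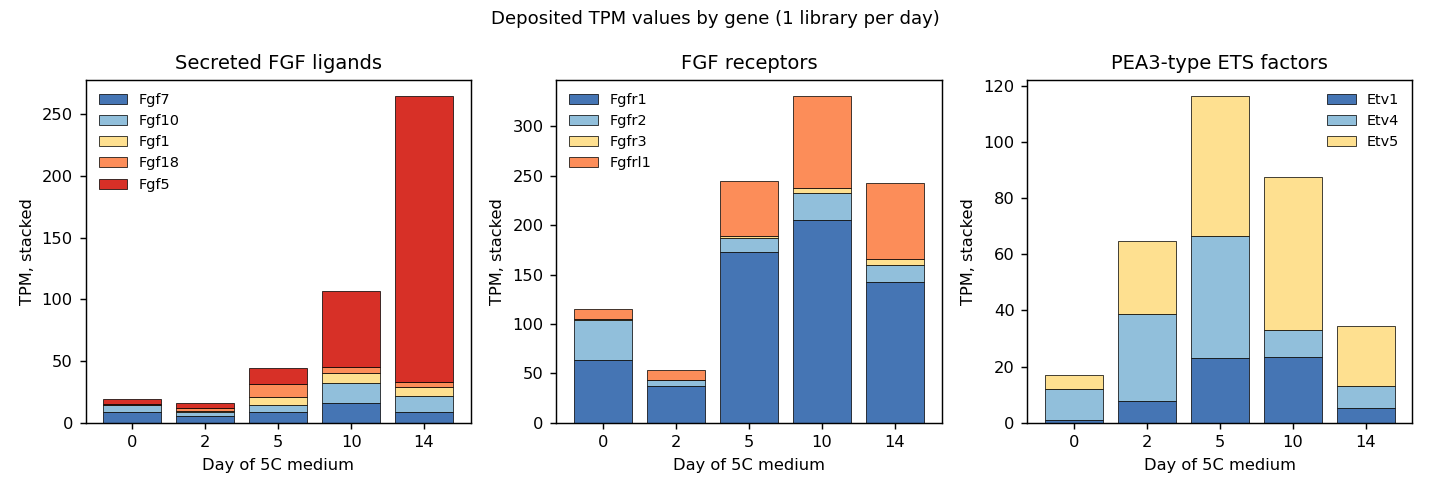
Deposited TPM values, stacked by gene and plotted against day of 5C medium, for secreted FGF ligands, FGF receptors and PEA3-type ETS factors, with 1 library per day. Fgf5 made up 231 TPM on day 14, Fgfr1 led the receptors in every library, and Etv5 passed Etv4 from day 5 on.

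Fgfr1 (ENSMUSG00000031565, chromosome 8, 25513654 to 25575718), the main FGF receptor of mesenchymal cells, had a normalized count of 599 on day 0 and of 435, 1006, 892 and 666 at the later times. It was lower on day 2 than on day 0 and highest on day 5. The change was -0.46 (-0.68 to -0.25), 0.75 (0.60 to 0.89), 0.57 (0.43 to 0.72) and 0.15 (0.00 to 0.31) at the later times, so that day 14 did not differ from day 0 beyond counting error. None of these passed 2-fold. Genes of like length had a running median of 0.49 on day 10, and after its subtraction the change of Fgfr1 was 0.09. An antisense gene, Gm16159, overlaps its exons and had no counts.

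Fgfr2 (ENSMUSG00000030849, chromosome 7, 130162451 to 133123350) encodes a receptor whose splice forms serve epithelia or mesenchyme, and the gene-level counts do not separate these forms. In normalized counts, Fgfr2 stood at 248 on day 0, then at 49.4, 55.3, 97.6 and 55.9. Day 0 lay above every later library, day 10 lay above days 2, 5 and 14, and those 3 did not differ from each other beyond counting error. The change was -2.30 (-2.98 to -1.77), -2.15 (-2.59 to -1.77), -1.34 (-1.66 to -1.04) and -2.13 (-2.56 to -1.74) at the later times. Subtraction of the length trend left all 4 values past 2-fold. Its annotated span is long and its exons overlap those of Ctbp2 by 314 bases.

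Within the receptors, the balance between these genes moved on the TPM scale. Fgfr1 held 60.3% of the summed level of Fgfr1 to Fgfr4 on day 0 and 85.4%, 91.2%, 86.4% and 85.3% at the later times. Fgfr2 held 39.1% on day 0 and 13.7%, 7.73%, 11.1% and 10.8% on the later days. The ratio of Fgfr1 to Fgfr2 was 1.54 on day 0 and 6.21, 11.8, 7.79 and 7.87 later. Of the receptors and co-receptors outside the 10 genes, 2 of 5 were tested. Of these, 0, 1, 2 and 1 were called up at the later times. Fgfrl1, a receptor without a kinase domain, had normalized counts of 69.3, 79.6, 250, 305 and 305, a change of 2.12 (1.76 to 2.53) on day 14. The co-receptor gene Kl was at 0 in all libraries.

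Among the ETS factors, Etv5 (ENSMUSG00000013089, chromosome 16, 22381309 to 22439719) showed the largest rise of the 10 genes. On day 0 Etv5 had 54.4 normalized counts, and at the later times it had 335, 328, 266 and 127. Days 2 and 5 did not differ beyond counting error, day 10 was lower and day 14 lower again, though still above day 0. The change was 2.60 (2.18 to 3.08), 2.57 (2.18 to 3.03), 2.27 (1.88 to 2.73) and 1.21 (0.76 to 1.70) at the later times. After subtraction of the length trend it was 1.68 on day 10 and 0.81 on day 14, where the call of over 2-fold was lost.

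Etv4 (ENSMUSG00000017724, chromosome 11, 101769742 to 101785371), the close relative of Etv5, rose at first and then fell below its starting level. The normalized count of Etv4 was 69.3 on day 0 and 246, 144, 21.4 and 15.2 later. The peak was on day 2, and the libraries of days 10 and 14 did not differ from each other beyond counting error. The change was 1.81 (1.40 to 2.27), 1.04 (0.64 to 1.48), -1.65 (-2.36 to -1.06) and -2.12 (-3.05 to -1.41) at the later times. The late values rested on 30 and 17 expected counts. The transcript lengths that RSEM used for Etv4 also moved, from 2180 bases at the start to 1815 on day 10 and 1258 at the end, and TPM values, with all tested genes recentred, gave a change of -1.25 on day 14.

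Both factors were thus higher on days 2 and 5 than on day 0. Between days 2 and 5 Etv4 changed by -0.77 (-1.11 to -0.44) and Etv5 by -0.03 (-0.29 to 0.23). On days 10 and 14 Etv5 stayed above its day 0 level and Etv4 was below it. Etv1, the remaining PEA3 factor, is named after its values were seen. Its normalized counts over the 5 days were 6.93, 95.9, 137, 97.1 and 27.7, a change of 4.13 (3.23 to 5.65) on day 5. On the TPM scale Etv4 held 65.6% of the summed level of the 3 factors on day 0, 10.7% on day 10 and 22.9% on day 14, when its model length was lowest, whereas Etv5 held 29.6%, 62.4% and 61.4%.

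Among the feedback inhibitors, Dusp6 (ENSMUSG00000019960, chromosome 10, 99263231 to 99267489) had a normalized count of 222 on day 0 and of 490, 685, 619 and 499 at the later times. All 4 later libraries lay above day 0, with the peak on day 5. The change was 1.14 (0.88 to 1.41), 1.62 (1.41 to 1.85), 1.48 (1.27 to 1.70) and 1.17 (0.94 to 1.40) at the later times. Days 2 and 14 did not differ beyond counting error. After subtraction of the length trend the day 14 value was 0.95, under 2-fold.

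Spry4 (ENSMUSG00000024427, chromosome 18, 38586247 to 38601415) was highest on day 5, as was Dusp6. In normalized counts, Spry4 stood at 85.2 on day 0, then at 147, 340, 179 and 138. Day 5 lay above every other library. Days 14 and 2, and days 2 and 10, did not differ beyond counting error. The change was 0.78 (0.33 to 1.24), 1.98 (1.66 to 2.35), 1.06 (0.72 to 1.45) and 0.69 (0.30 to 1.09) at the later times. Its model of 4587 bases is the longest of the 10 genes, and after subtraction of the length trend the day 10 value was 0.34, under 2-fold, and the day 14 value 0.27.

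Spry2 (ENSMUSG00000022114, chromosome 14, 105891947 to 105896819) was called up on day 14 only. On day 0 Spry2 had 242 normalized counts, and at the later times it had 293, 459, 375 and 498. Days 0 and 2 did not differ beyond counting error, nor did days 5 and 14, which were the highest. The change was 0.27 (-0.02 to 0.57), 0.92 (0.70 to 1.14), 0.63 (0.41 to 0.85) and 1.03 (0.82 to 1.26) at the later times. The day 14 call lay at the threshold, and after subtraction of the length trend the value was just below 2-fold.

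Spry1 (ENSMUSG00000037211, chromosome 3, 37639947 to 37644598) was the only feedback inhibitor that was lower on day 2. The normalized count of Spry1 was 78.2 on day 0 and 21.3, 140, 121 and 130 later. The day 2 value rested on 11.8 expected counts in the library with the lowest sum, and the 3 last libraries did not differ from each other beyond counting error. The change was -1.83 (-2.86 to -0.96), 0.83 (0.44 to 1.25), 0.63 (0.24 to 1.04) and 0.72 (0.32 to 1.14) at the later times. Gm42922, on the opposite strand, overlaps Spry1 exons by 710 bases and was not among the genes counted. Reads from these shared bases cannot be told apart.

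The Sprouty genes thus did not move as a block on day 2, when Spry4 was higher, Spry2 was within counting error of day 0 and Spry1 was lower. On the TPM scale Spry2 led in every library, with 70.0% of the summed level of Spry1, Spry2 and Spry4 on day 0 and 62.9% to 77.7% later. Spry1 held 18.9% on day 0 and 4.79% on day 2, and Spry4 held 11.1% on day 0, 21.1% on day 5 and 9.34% on day 14.

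**Figure D3:**
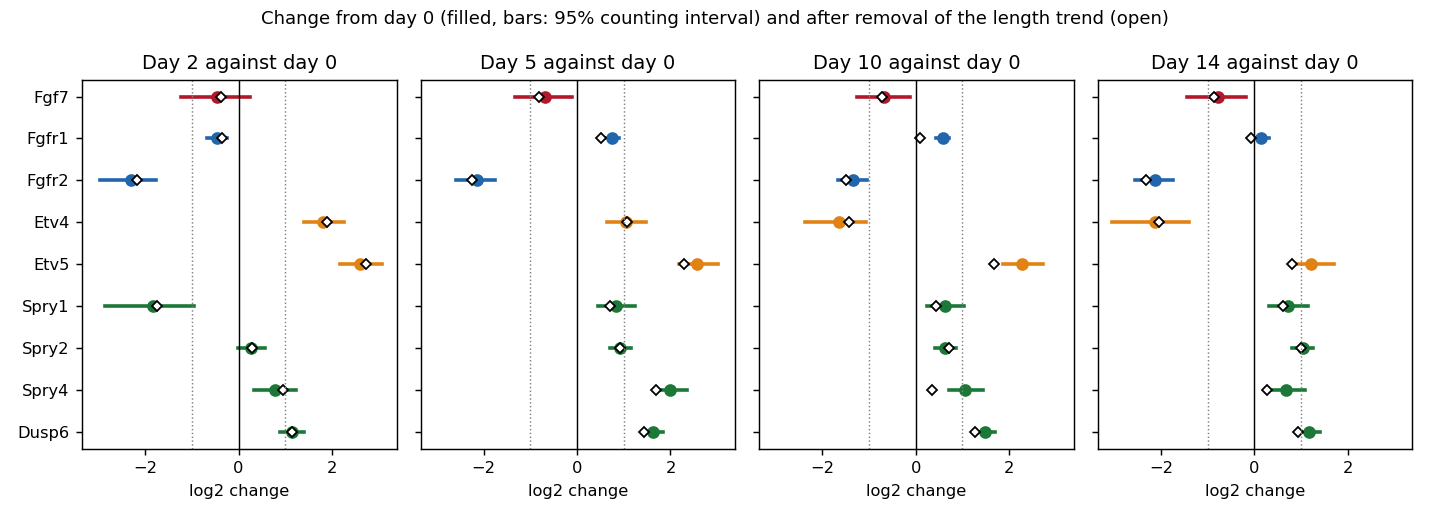
log2 change from day 0 of the 9 tested genes at each later day (filled points, with bars for the 95% counting interval) and the same change after subtraction of the running median over gene length (open diamonds), with dotted lines at 2-fold. Fgfr2 lay left of the lower line and Etv5 right of the upper line at all 4 times, while the open diamond of Etv5 on day 14 was at 0.81.

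Between days 2 and 5, in the same medium, 3 of the 9 tested genes rose over 2-fold (Spry1, Spry4 and Fgfr1) and 0 fell, where 19.0% of all tested genes rose and 12.5% fell. Spry1 rose by 2.66 (1.84 to 3.67) and Spry4 by 1.21 (0.86 to 1.58) over this step. These values rest on the day 2 library with its high share of Gm42418, and the part of that share was not tested. Between days 10 and 14, 0 genes rose and 1 fell over 2-fold (Etv5), where 4.73% of all tested genes rose and 8.33% fell. The length trend was not subtracted for these step calls. After its subtraction, changes from day 0 on days 2 and 5 were 0.96 and 1.68 for Spry4 and -0.35 and 0.50 for Fgfr1. Those of Etv5 on days 10 and 14 were 1.68 and 0.81. In each of these pairs the values lay under 2-fold apart. Spry1, at -1.74 and 0.71 on days 2 and 5, stayed over 2-fold.

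To describe likeness of pattern, log2 normalized counts of each gene were centred on their mean over the 5 libraries, and the root mean square difference between 2 profiles was taken over these 5 points. Spry4 and Dusp6 were nearest to each other (0.32), Spry2 and Fgfr1 were nearest to each other (0.37), and Etv5 was nearest to Dusp6 (0.56). Etv4 was the farthest gene from Spry1, Spry2, Spry4, Dusp6, Fgf7, Fgfr1 and Fgfr2, at up to 2.29. Even its own nearest gene, Fgf7, lay at 1.44. The mean profile of the 6 feedback inhibitors and ETS factors was -0.70 on day 0 and 0.10, 0.80, 0.04 and -0.25 at the later times. Of 8273 genes with 100 or more counts in a library, Fkbp5 (0.10), Efhd2 (0.11), Msh6 (0.12), Smox (0.14) and Ccl2 (0.14) had the most like profile. Among the 6 genes themselves, each of which is part of that mean, Spry4 ranked 18, Dusp6 93, Spry2 458, Etv5 2733, Spry1 6508 and Etv4 7531, so the mean describes Spry4 and Dusp6 better than the others. All 5 points share their libraries, so likeness over them is a description.

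The cascade between receptor and nucleus was given by 18 genes, all tested. At the later times 0, 0, 3 and 2 of them were called up and 3, 2, 2 and 2 down. Gab1, a docking protein downstream of the receptor, had normalized counts of 64.3, 85.0, 99.8, 313 and 354, a change of 2.44 (2.08 to 2.86) on day 14. Hras, one of the Ras genes, had 1034, 912, 340, 130 and 199, a change of -2.37 (-2.59 to -2.16). The length trend was not subtracted for Gab1 or Hras. The shares of all tested genes given above, 15.2%, 20.2%, 28.7% and 24.5% up and 13.1%, 13.6%, 22.3% and 19.9% down at the later times, are the background for these counts and for those of the lists that follow.

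Of 10 heparan sulphate proteoglycans, which present FGFs to their receptors, 9 were tested, with 0, 3, 3 and 2 called up and 2, 0, 2 and 1 called down, against the same background shares. Gpc1 had normalized counts of 377, 545, 640, 1580 and 7027, a change of 4.22 (4.07 to 4.37) on day 14. Gpc2 changed by 1.81 (1.22 to 2.53), and Gpc4, named after its values were seen, by -1.80 (-2.04 to -1.58). Of 4 intracellular FGF homologous factors, which are not secreted and bind sodium channels, 3 were tested, with 0, 0, 2 and 1 up and 2, 1, 1 and 1 down. Fgf11 rose from 5.94 normalized counts on day 0 to 83.1 on day 14, a change of 3.60 (2.63 to 5.29).

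A further 14 feedback and modulator genes outside the 10 were listed, and 12 were tested. At the later times 3, 3, 4 and 3 were called up and 1, 3, 3 and 4 down, of 12, where 15.2% to 28.7% of all tested genes were up and 13.1% to 22.3% down. Dusp5, a nuclear ERK phosphatase, had normalized counts of 519, 340, 71.8, 22.1 and 94.7, so that it was lowest on day 10, at -4.49 (-5.12 to -4.03), when Dusp6 was at 1.48. Flrt2, a membrane protein of a family that binds FGF receptors, changed by -1.62 (-1.86 to -1.40) on day 14. The ERK phosphatase genes Dusp5 and Dusp6 thus changed from day 0 in opposite directions at all 4 later times. On day 2 Dusp5 was at -0.61 (-0.86 to -0.37) and Dusp6 at 1.14 (0.88 to 1.41). Of 12 other genes that ERK is known to induce, 11 were tested, with 4, 3, 3 and 4 up and 3, 2, 4 and 3 down, against the same background of 15.2% to 28.7% up and 13.1% to 22.3% down. Fos rose from 128 through 275, 487 and 1348 to 4342, a change of 5.08 (4.84 to 5.35) on day 14, when Etv4 stood at 15.2. Epha2, a receptor tyrosine kinase, fell from 307 to 25.9, a change of -3.52 (-4.17 to -3.01).

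**Figure D4:**
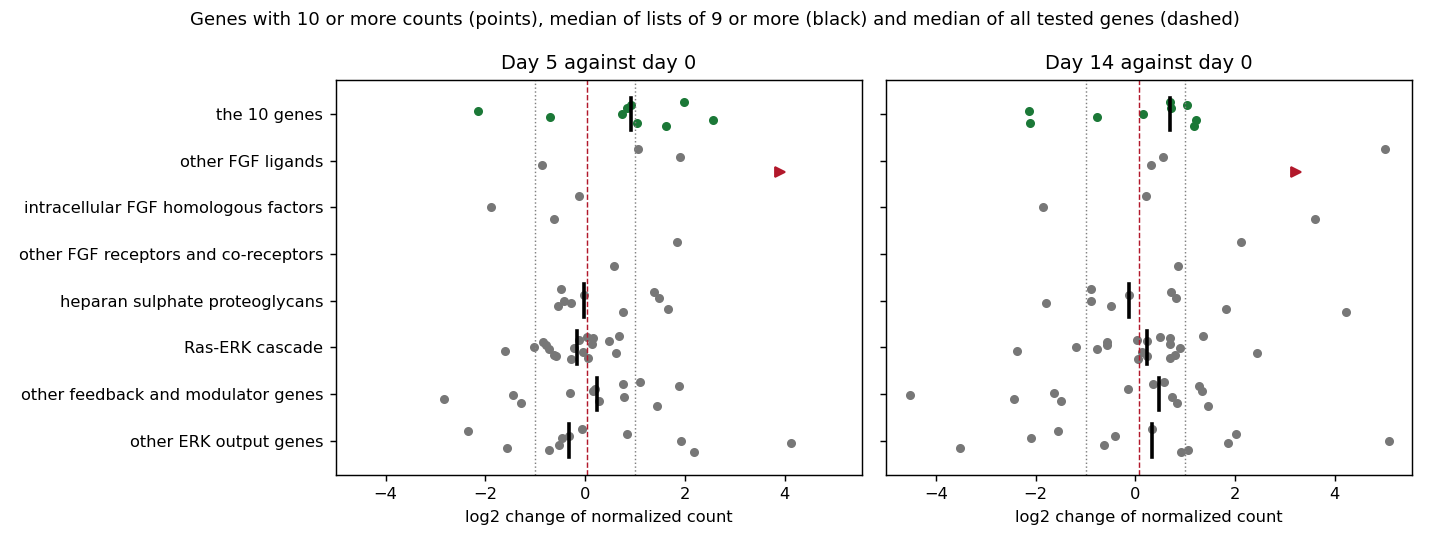
log2 change of normalized counts on days 5 and 14 for the tested genes of each list (points), with the median of lists of 9 or more genes (black bars), the median of all tested genes (dashed) and 2-fold (dotted). The red triangle is the lower bound for Fgf1. The median of the 10 listed genes, 9 of them tested, was 0.92 on day 5 and 0.69 on day 14, and on day 14 Fgf5 lay at 5.01 and Gpc1 at 4.22.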

How the data were processed

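Expression was measured by RNA-seq in 1 library per day, grouped by the day in the labels. The authors deposited expected counts per gene (RSEM's estimates of reads per gene, not scaled) and TPM values, which RSEM divides by transcript length and scales to 1000000. The submitters' processing notes name Bowtie, RSEM and mm10, and versions, annotation and filters are not given in the sources used here. FPKM values were not used.

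Gene identifiers were matched to GENCODE M21 (27247 of 27729 had a symbol). Expected counts were rounded to whole numbers for the TMM factors of edgeR 4.0.16 (R 4.3.3) and for intervals. Normalized counts are expected counts divided by effective library sizes and scaled to their geometric mean. The pseudocount was 1, the filter 10 or more counts in 1 or more libraries, and calls were over 2-fold, with no test. The counting intervals and the floor of 3 counts cover counting error only, since there was 1 library per day. They make no allowance for duplicate reads. The length trend is the running median over 501 genes ordered by model length. The computations were tested on simulated counts.

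The 10 genes and all lists were chosen with earlier results of these data known. Of each other list, the 2 genes with the largest change on day 14 among those with 50 or more counts were named, and for likeness the 5 nearest genes. Etv1 and the GGAA core were added after the values were seen. Alternatives were size factors of DESeq2 1.42.0, TPM values with and without recentring, removal of the length trend, pseudocounts of 5 and 0, other filters and a 4-fold threshold, and, chosen after seeing the data, TMM without the day 2 library. Python 3.11.15 was used with numpy 2.4.6, pandas 2.3.3, scipy 1.17.1 and matplotlib 3.10.9. Spry3 was not analysed here.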

Additional observations from a re-analysis of the deposited data

How the results depend on the processing

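With DESeq2's size factors, a pseudocount of 5 or no pseudocount, all 36 changes of the 9 tested genes to day 0 stayed within their counting interval, and with TMM without the day 2 library, chosen after seeing the data, so did 27 of 27. TPM values moved 31 of 36, with the median of all tested genes shifted to -0.20, 0.61, 1.09 and 0.78 on days 2, 5, 10 and 14. After recentring on that median 3 moved, and after removal of the length trend 7. No called change reversed its direction. With TPM values that were not recentred, 7 of the FGF genes were over 2-fold up on day 5, 6 up and 0 down on day 10, and 6 up and 1 down on day 14. With the length trend removed, 0 were up on day 14. At a 4-fold threshold, 1 was up and 1 down on day 2, 1 up on day 5, 1 up and 0 down on day 10, and 0 up on day 14. Of all tested genes, TPM values put 1055 up on day 2, 4269 up and 531 down on day 5, 7055 up and 904 down on day 10, and 5548 up and 929 down on day 14, and with no filter 3503 were up on day 2. No paired analysis was possible because each day had 1 library. The depth of 2253748 to 3890334 counts limits Fgf2, Spry1 on day 2 (11.8 expected counts) and Etv4 on days 10 and 14 (30 and 17).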
